A study of Mus musculus with 15 samples.

Results

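The DNA replication genes described here are 44 genes that encode the machinery of genome copying. They were chosen by name for what their products do, with earlier results of these data known. All 44 were present among the 17185 genes of the count table, and all 44 passed the filter on low counts in every comparison. Their transcripts were counted cell by cell in the intestines of 5 mice, with 3 libraries a mouse, 1 each from the proximal small intestine (the proximal region), its distal end (the distal region) and the colon. Every mouse was 6 months old and carried Lgr5-eGFP-IRES-CreERT2, an allele that places a green fluorescent protein and an inducible recombinase under the control of the stem cell gene Lgr5. No treatment that would activate the recombinase is named in the labels. The control group was 2 mice on a purified diet with 10% of kcal from fat, and the high fat group was 3 mice on a diet with 60% of kcal from fat. The authors' cell table splits the cells into those called stem and the rest, here named stem-called cells and other cells. A stem call equalled at least 1 unique molecular identifier (UMI, the tag that marks 1 captured molecule) of Lgr5 or eGFP in all 18919 cells. Neither of those genes is among the 44.

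Before a cell divides, the origin recognition complex with Cdc6 and Cdt1 loads the MCM helicase ring onto DNA. Cdc45 and the GINS proteins then turn the ring into an active helicase, primase and the polymerases copy each strand behind it, and a sliding clamp holds the polymerases in place. Transcription of many of these genes is known to be driven by E2F factors at the passage from G1 into S phase. In the intestine, crypt base stem cells and the transit-amplifying cells above them divide throughout life, while cells on the villus or the colon surface have left the cycle.

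UMI counts were summed over the cells of each library by stem call, which gave 30 sums, and levels are given as counts per 1000000 UMIs of the sum (CPM). The stem-called sums held 27 to 617 cells and 321496 to 13694552 UMIs, and the other sums 297 to 1438 cells and 1699260 to 28652200 UMIs. The smallest stem-called sum was that of the colon of high fat mouse 2, whose values for genes at low levels rest on few UMIs. A sum cannot tell fewer copying cells apart from less RNA per copying cell. Across libraries, 16 cell barcodes occurred more than once. Summed over 8 stem cell markers (Olfm4, Ascl2 and others, without Lgr5), stem-called cells ranged over 7717 to 10264 CPM, 8279.8 to 11570.3 CPM and 3280.1 to 4336 CPM in the proximal region, the distal region and the colon, against 2609.7 to 4046 CPM, 1430.4 to 3672 CPM and 918 to 1867 CPM in other cells. In the colon 1 of the 8 markers was at 0 in every library of a diet, for both diets and in stem-called and other cells alike. The colon sums thus rest on fewer markers than those of the small intestine.

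A sequence feature that no rule of choice used was found in some promoters of these genes. RefSeq promoters on GRCm38.p6 (the mm10 assembly), running from 250 bases before to 50 bases after each annotated start, were searched on both strands for 4 E2F motifs, TTTCCCGC, TTTGGCGC, TTTCGCGC and TTTGCCGC. A motif was present for 16 of the 38 replication genes with a promoter in the table (42.1%), against 704 of all 27025 genes (2.605%). In 10 of the 16 a match lay wholly before the start. Of all 32851 promoters of that length, 744 (2.26%) held a motif. Among 27 mitosis genes 1 had a match. The box CCAAT, a common promoter element, was present for 25 of the 38 genes (65.8%) and 41.1% of all genes. A match of letters is a description and not a shown site of binding. The stretches printed show the motif in capitals upstream of the gene that led every stem call comparison (Dtl), of helicase, helicase partner and clamp loader genes, each read 5′ to 3′ on the strand of its gene and lying outside the annotated gene. They are, for Dtl, chr1:191575545-191575572 on the minus strand, with the motif starting 8 bases before the start; for Mcm5, chr8:75109336-75109383 on the plus strand, 153 bases before; for Mcm6, chr1:128359788-128359835 and chr1:128359725-128359772 on the minus strand, 110 and 47 bases before; for Gins3, chr8:95633498-95633545 on the plus strand, 41 bases before, with the motif on the opposite strand; and for Rfc3, chr5:151651209-151651238 on the minus strand, 10 bases before. The Mcm5 distance is counted to an annotated start that lies within the gene, which begins at chr8:75109468. In Mcm5 and at the farther Mcm6 match, a second motif on the opposite strand overlaps the one in capitals.
Dtl: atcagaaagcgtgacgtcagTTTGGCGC
Mcm5: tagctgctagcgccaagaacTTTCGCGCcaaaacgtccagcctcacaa
Mcm6, farther match: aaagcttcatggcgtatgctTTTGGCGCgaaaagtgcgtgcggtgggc
Mcm6, nearer match: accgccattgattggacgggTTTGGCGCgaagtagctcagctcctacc
Gins3: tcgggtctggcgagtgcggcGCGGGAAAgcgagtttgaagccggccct
Rfc3: ccggaagtgacgtcgcacgcTTTCGCGCtc

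The mean level of the 44 genes was higher in stem-called than in other cells in all 15 libraries, and the mean gap widened from the proximal region to the colon. Proximal stem-called sums averaged 98.7 and 98.1 CPM in the control mice and 92.5, 99.2 and 113 CPM in the high fat mice, and the other sums 95.2 and 77.5 CPM in the control mice and 81.8, 77.3 and 88.04 CPM in the high fat mice. Distal stem-called sums averaged 77.7 and 99.6 CPM in the control mice and 105, 85.6 and 105 CPM in the high fat mice, and the other sums 70.7 and 59.9 CPM in the control mice and 77.8, 59.6 and 64.4 CPM in the high fat mice. Colon stem-called sums averaged 63.5 and 86.02 CPM in the control mice and 86.3, 75.6 and 92.6 CPM in the high fat mice, and the other sums 58.6 and 36.2 CPM in the control mice and 60.7, 39.95 and 47.2 CPM in the high fat mice. The groups of sums overlapped in the proximal region, where control mouse 1 had other cells close to its stem-called cells. Distal sums overlapped in 1 sum of each kind, the stem-called sum of control mouse 1 and the other sum of high fat mouse 1. In the colon every stem-called sum was above every other sum. The ratio of stem-called to other cells was 1.20 ± 0.111 in the proximal region, 1.44 ± 0.227 in the distal region and 1.75 ± 0.502 in the colon (SD, n = 5 mice). Control mouse 1 had the smallest ratio in each organ (1.04, 1.10 and 1.08), and control mouse 2 the highest in the distal region (1.66) and the colon (2.37). A stem call needs only 1 UMI, so the call depends on depth. Median UMIs per stem-called cell were 12234.5 (proximal), 6573 (distal) and 5354 (colon) in control mouse 1. In control mouse 2 they were 19819, 21098 and 19000. High fat mouse 1 had 6870 UMIs and a ratio of 1.13 in the proximal region. High fat mouse 2 had 5956 UMIs and a ratio of 1.44 in the distal region. The part of depth in the ratios was not tested.

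**Figure D1:**
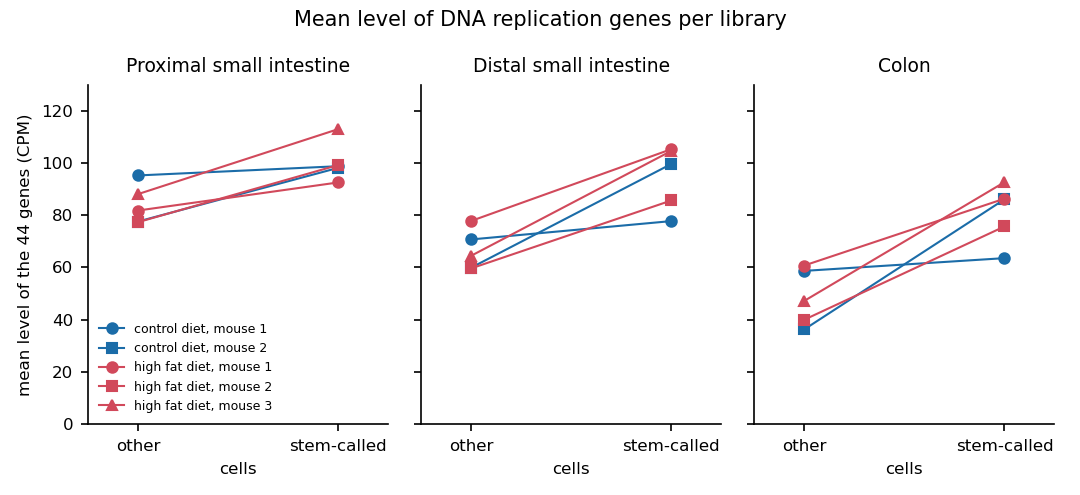
Mean level of the 44 replication genes (vertical axis, CPM) in other and stem-called cells (horizontal axis), with 1 line per library, colour for diet and symbol for mouse. All 15 lines go up to the stem-called side, least in control mouse 1 and most in the colon of control mouse 2, where the mean was 36.2 CPM in other and 86.0 CPM in stem-called cells.

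Gene by gene, most of the 44 genes were higher in stem-called than in other cells of the same library in every organ. By library, 25 to 43 of 44 were higher in the proximal region, 27 to 44 in the distal region and 30 to 44 in the colon. The test called most of them in the distal region and the colon and few in the proximal region. In the colon 40 of 44 genes were called higher (19.2% of all 13544 genes tested) and 0 lower (22.1% of all genes), with a median log2 fold change of 0.71. The 4 not called there were Gins3, Rpa3, Rrm2 and Asf1b. In the distal region 35 were called higher (18.1% of all genes) and 0 lower (22.1%), with a median of 0.48. In the proximal region 11 were called higher (14.1% of all genes) and 1 lower (19.3%), with a median of 0.19. The median over all genes tested was -0.0052 in the proximal region, -0.0047 in the distal region and -0.007 in the colon. The number of genes higher in stem-called cells in every one of the 5 mice was 21 in the proximal region (21.8% of all genes with counts), 26 in the distal region (19.6%) and 28 in the colon (15%).

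These counts rest partly on control mouse 2. For this and the other refits, the share of all genes called is not given beside the count. A general loss or gain of calls can therefore not be told apart from a change in these genes. Without it the calls fell to 3, 14 and 22 in the proximal region, the distal region and the colon, with medians of 0.11, 0.29 and 0.42, and without control mouse 1 they were 20, 41 and 41, with medians of 0.29, 0.66 and 0.97. In the proximal region no gene was called without high fat mouse 2 or without high fat mouse 3, and in the colon 28 were called without high fat mouse 3. Marker RNA of other cell types also differed between stem-called and other cells, and its part in the difference was not tested. Goblet cell markers (6 of 7 in the table) summed to 378 to 1691 CPM in stem-called and 2756 to 3413 CPM in other cells of the proximal region, 1638 to 5573 CPM and 6272 to 18922 CPM in the distal region, and 540.4 to 2208 CPM and 2707 to 10063 CPM in the colon. Enterocyte markers (9 of 9) summed to 1385 to 1989 CPM in stem-called and 3521 to 4821 CPM in other cells of the proximal region, and colonocyte markers (6 of 6) to 12.4 to 602 CPM and 81.1 to 3996 CPM in the colon. Enterocyte markers in the colon overlapped, at 154 to 273 CPM in stem-called and 83.6 to 262 CPM in other cells. Paneth cell markers (6 of 6) summed to 1897 to 16365 CPM in stem-called and 654 to 6838 CPM in other cells of the distal region, and overlapped widely in the proximal region (127 to 1331 CPM and 239.9 to 1106 CPM). B cell markers (6 of 7 in the table) reached 3336 CPM in the other cells of 1 colon library. With 1694 cells that carried lymphocyte markers left out, the calls were 13, 36 and 40.

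**Figure D2:**
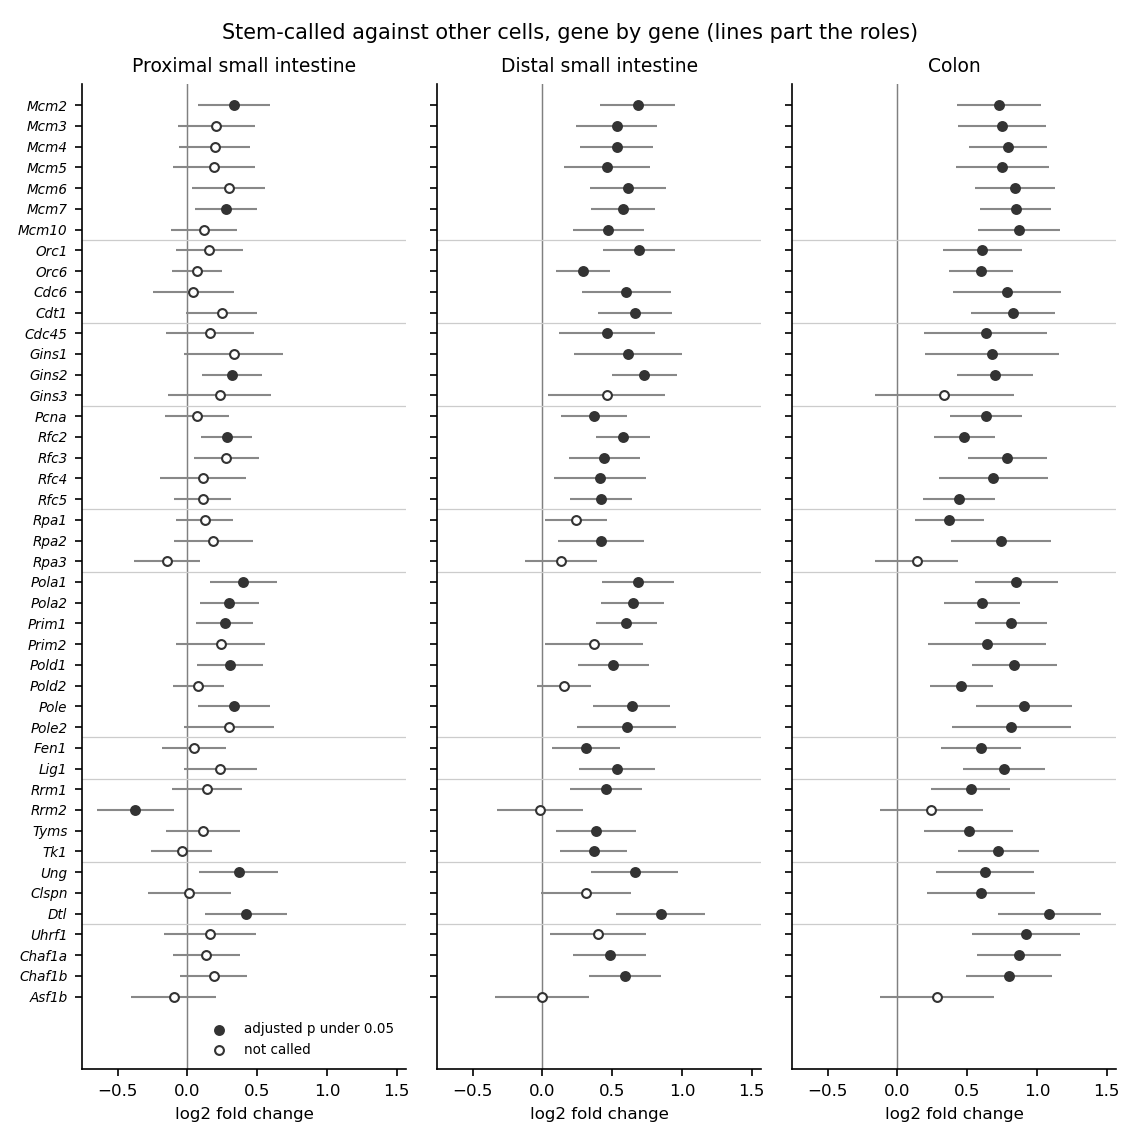
Log2 fold change of stem-called against other cells (horizontal axis) for each of the 44 genes (vertical axis, ordered by role with lines between roles) in the 3 organs. Points are edgeR estimates, bars are 95% confidence intervals and filled points have an adjusted p under 0.05. Most points lie right of 0, with Rrm2 left of it in the proximal region, and 11, 35 and 40 filled points stand on the higher side in the proximal region, the distal region and the colon.

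The helicase genes were called as a block in both the distal region and the colon. Mcm2 to Mcm7 encode the 6 subunits of the replicative helicase and Mcm10 a factor that helps it start. In stem-called cells Mcm6 stood at 358 and 258 CPM in the control mice and 378, 322 and 341 CPM in the high fat mice in the proximal region. In the distal region it had 295 and 276 CPM in the control mice and 409, 292 and 299 CPM in the high fat mice. The colon sums had 272 and 226 CPM in the control mice and 336, 311 and 285 CPM in the high fat mice. Other cells had 229.9 and 90.7 CPM in the control mice and 220.3, 120.1 and 126 CPM in the high fat mice in the colon, and Mcm6 was higher in stem-called cells in 5 of 5 mice in each organ, with overlap between the groups of sums. The difference was 0.30 ± 0.12 (log2, SE) in the proximal region (adjusted p = 0.0780), 0.61 ± 0.13 in the distal region (adjusted p = 0.00117) and 0.84 ± 0.14 in the colon (adjusted p = 0.000143). All 7 helicase genes rose in the distal region, by 0.46 to 0.68 on the log2 scale, and all 7 in the colon, by 0.73 to 0.87. In the proximal region 2 of 7, Mcm2 (0.34) and Mcm7 (0.28), passed the test.

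The loaders of the helicase were likewise all called outside the proximal region. Orc1 and Orc6 belong to the origin recognition complex, and Cdc6 and Cdt1 bring the helicase to it. In stem-called cells Cdt1 stood at 107 and 76.4 CPM in the control mice and 79.5, 109 and 89.3 CPM in the high fat mice in the proximal region. Its distal sums had 95.2 and 91.3 CPM in the control mice and 115, 95.2 and 93.7 CPM in the high fat mice. Its colon sums had 78.6 and 75.3 CPM in the control mice and 98.1, 109 and 87.3 CPM in the high fat mice. Other cells of the colon had 72.6 and 29.7 CPM in the control mice and 60.5, 27.7 and 42.9 CPM in the high fat mice, below every stem-called sum there. Cdt1 rose by 0.66 ± 0.13 (log2, SE) in the distal region (adjusted p = 0.000541) and by 0.83 ± 0.14 in the colon (adjusted p = 0.000274), and stood at 0.24 ± 0.12 in the proximal region (adjusted p = 0.128). All 4 loader genes rose in the distal region (0.29 to 0.69) and in the colon (0.60 to 0.83), and 0 of 4 passed in the proximal region with edgeR, where 0 of 4 also had an unadjusted p under 0.05.

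Orc1 was the loader with the largest change in the distal region. Its stem-called sums there had 18.7 and 20.8 CPM in the control mice and 25.3, 16.2 and 23.8 CPM in the high fat mice, and its other sums 14.8 and 11.02 CPM in the control mice and 16.4, 11.9 and 12.2 CPM in the high fat mice. It was higher in stem-called cells in 5 of 5 mice, and it rose by 0.69 ± 0.12 (log2, SE, adjusted p = 0.000296).

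The partners that make the helicase active are Cdc45 and the GINS proteins, here Gins1, Gins2 and Gins3. In stem-called cells Gins2 stood at 65.05 and 53.4 CPM in the control mice and 55.4, 51.6 and 56.1 CPM in the high fat mice in the proximal region. The distal values were 54.5 and 50.6 CPM in the control mice and 55.4, 44.8 and 66.5 CPM in the high fat mice. The colon values were 39.6 and 47.2 CPM in the control mice and 52.7, 52.9 and 51.4 CPM in the high fat mice. Other cells had 36.6 and 28.6 CPM in the control mice and 39.4, 23.4 and 33.1 CPM in the high fat mice in the distal region, so that no other sum reached a stem-called one there. Gins2 rose in all 3 organs, by 0.32 ± 0.10 (adjusted p = 0.0237), 0.73 ± 0.11 (adjusted p = 7.56e-05) and 0.70 ± 0.13 (adjusted p = 0.000449) on the log2 scale with SE. Cdc45 and Gins1 passed in the distal region and the colon, and Gins3, at a mean of 13.9 CPM in stem-called cells over the organs, passed in none.

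Of the sliding clamp Pcna and the clamp loader subunits Rfc2 to Rfc5, all 5 rose in the distal region (0.37 to 0.58 on the log2 scale) and in the colon (0.44 to 0.79), and only Rfc2 (0.28) passed in the proximal region. In stem-called cells Pcna stood at 157 and 177 CPM in the control mice and 139, 139 and 179.8 CPM in the high fat mice in the proximal region. The distal sums reached 123 and 243 CPM in the control mice and 152, 118 and 229.8 CPM in the high fat mice. The colon sums reached 91.1 and 218 CPM in the control mice and 137, 121 and 228 CPM in the high fat mice. Control mouse 2 and high fat mouse 3 had the highest Pcna in the distal region and the colon. Other cells had 79.8 and 97.6 CPM in the control mice and 114, 78.9 and 117 CPM in the high fat mice in the colon, and the groups overlapped. Pcna stood at 0.07 ± 0.11 (log2, SE) in the proximal region (adjusted p = 0.671) and rose by 0.37 ± 0.11 in the distal region (adjusted p = 0.0156) and 0.63 ± 0.12 in the colon (adjusted p = 0.000695).

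The single-strand binding genes Rpa1, Rpa2 and Rpa3, whose products coat unwound DNA, had median differences of 0.12, 0.24 and 0.37 on the log2 scale in the proximal region, the distal region and the colon. In stem-called cells Rpa1 stood at 101 and 107 CPM in the control mice and 90.6, 106 and 125 CPM in the high fat mice in the proximal region. In the distal region it had 72.1 and 97.2 CPM in the control mice and 92.9, 80.2 and 102 CPM in the high fat mice. The colon sums had 56.2 and 91.3 CPM in the control mice and 90.1, 77.8 and 92.6 CPM in the high fat mice. Other cells of the colon had 58.8 and 52.3 CPM in the control mice and 79.3, 67.1 and 56.8 CPM in the high fat mice, and the groups overlapped. Rpa1 was higher in stem-called cells in 4 of 5 mice in each organ and passed in the colon alone (0.37 ± 0.12, log2 with SE, adjusted p = 0.0185). Rpa2 passed in the distal region (0.42) and the colon (0.74). Rpa3 passed in no organ, at -0.15, 0.13 and 0.14.

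The polymerase genes held 5 of the 11 higher calls of the proximal region. Pola1 and Pola2 with Prim1 and Prim2 form the complex that lays primers, Pold1 and Pold2 belong to polymerase delta, and Pole and Pole2 to polymerase epsilon. In stem-called cells Pola1 stood at 118 and 117 CPM in the control mice and 92.8, 124 and 136 CPM in the high fat mice in the proximal region. Its distal sums had 86.95 and 108 CPM in the control mice and 112, 117 and 104 CPM in the high fat mice. Its colon sums had 50.9 and 89.7 CPM in the control mice and 85.2, 83.98 and 93.5 CPM in the high fat mice. Other cells had 96.2 and 76.4 CPM in the control mice and 83.1, 82.9 and 90.01 CPM in the high fat mice in the proximal region, where Pola1 was higher in stem-called cells in 5 of 5 mice and the groups overlapped through high fat mouse 1 and control mouse 1. Pola1 rose by 0.40 ± 0.11 (log2, SE, adjusted p = 0.0126) in the proximal region, 0.68 ± 0.12 (adjusted p = 0.000315) in the distal region and 0.85 ± 0.14 (adjusted p = 0.000192) in the colon. Its proximal call was lost without high fat mouse 2 (0.40) or high fat mouse 3 (0.36). The 8 genes of the group passed in 5, 6 and 8 cases in the proximal region, the distal region and the colon.

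Pole, the catalytic subunit of polymerase epsilon, had one of the 3 largest changes in the colon. Its stem-called sums there had 40.2 and 37.1 CPM in the control mice and 50.9, 40.4 and 56.3 CPM in the high fat mice, and its other sums 31.2 and 13.9 CPM in the control mice and 33.2, 20.6 and 22.8 CPM in the high fat mice. Every stem-called sum was above every other sum. Pole rose by 0.90 ± 0.16 (log2, SE, adjusted p = 0.000365).

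Fen1, the nuclease that trims the ends of lagging strand pieces, and Lig1, the ligase that seals them, both rose in the distal region (0.31 and 0.54 on the log2 scale) and the colon (0.60 and 0.76). In stem-called cells Lig1 stood at 226 and 221 CPM in the control mice and 160.2, 187 and 232 CPM in the high fat mice in the proximal region. The distal values were 203 and 197 CPM in the control mice and 223, 159 and 201 CPM in the high fat mice. The colon values were 153 and 170.1 CPM in the control mice and 180.3, 165 and 213 CPM in the high fat mice. Other cells of the colon had 149 and 66.9 CPM in the control mice and 119, 77.7 and 95.9 CPM in the high fat mice, below every stem-called sum. In the proximal region Lig1 stood at 0.24 ± 0.12 (SE, adjusted p = 0.161) and Fen1 at 0.05 ± 0.11 (adjusted p = 0.797).

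Of the genes of nucleotide supply, all but Rrm2 were called higher in the distal region and the colon. Rrm1 and Rrm2 encode the subunits of ribonucleotide reductase, Tyms thymidylate synthase and Tk1 thymidine kinase. In stem-called cells Rrm1 stood at 252 and 267 CPM in the control mice and 219, 247 and 307 CPM in the high fat mice in the proximal region. The distal sums reached 195 and 246 CPM in the control mice and 274, 198 and 287 CPM in the high fat mice. The colon sums reached 123 and 212 CPM in the control mice and 220.1, 143 and 213 CPM in the high fat mice. Rrm1 rose in the distal region (0.45 ± 0.12, log2 with SE, adjusted p = 0.00734) and the colon (0.52 ± 0.13, adjusted p = 0.00502), and Tyms and Tk1 passed in the same organs. In the colon control mouse 1 had less Rrm1 in stem-called (123 CPM) than in other cells (133 CPM).

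Rrm2 was the one gene called lower in stem-called cells, and only in the proximal region. In the proximal region its stem-called sums had 51.9 and 77.5 CPM in the control mice and 48.96, 70.3 and 66.02 CPM in the high fat mice, and its other sums 65.6 and 99.1 CPM in the control mice and 54.4, 80.6 and 89.5 CPM in the high fat mice. It was lower in stem-called cells in 5 of 5 mice although the groups overlapped. Rrm2 fell by 0.37 on the log2 scale (SE 0.13, adjusted p = 0.0364), a call that held without control mouse 1 alone among the 5 refits that left out a mouse (-0.40 to -0.32) and was lost with DESeq2 (-0.38). It stood at -0.02 ± 0.15 in the distal region (adjusted p = 0.956) and 0.24 ± 0.18 in the colon (adjusted p = 0.290).

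Dtl, the substrate adaptor of the ubiquitin ligase that destroys Cdt1 at the clamp, had the largest rise in all 3 organs. In stem-called cells Dtl stood at 114 and 98.00 CPM in the control mice and 125, 112 and 143 CPM in the high fat mice in the proximal region. In the distal region it had 89.7 and 94.9 CPM in the control mice and 108, 82.1 and 107 CPM in the high fat mice. The colon sums had 52.03 and 89.7 CPM in the control mice and 71.7, 68.4 and 105 CPM in the high fat mice. Its other sums had 93.8 and 65.7 CPM in the control mice and 94.7, 71.4 and 97.4 CPM in the high fat mice in the proximal region. In the distal region they had 48.2 and 49.1 CPM in the control mice and 71.3, 48.9 and 49.6 CPM in the high fat mice, and in the colon 46.3 and 21.97 CPM in the control mice and 41.7, 41.2 and 40.01 CPM in the high fat mice. No other sum reached a stem-called sum of the same organ. Dtl rose by 0.42 ± 0.14 (log2, SE, adjusted p = 0.0266), 0.85 ± 0.15 (adjusted p = 0.000307) and 1.09 ± 0.18 (adjusted p = 0.000146) in the proximal region, the distal region and the colon. The proximal call was lost without high fat mouse 2 (0.43), without high fat mouse 3 (0.42) and with DESeq2 (0.41).

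Ung, the glycosylase that removes uracil from DNA, stood at 45.6 and 37.1 CPM in the control mice and 72.2, 49.6 and 62.7 CPM in the high fat mice in stem-called cells of the proximal region. Other cells there had 43.5 and 27.05 CPM in the control mice and 56.6, 33.1 and 35.9 CPM in the high fat mice, and the groups overlapped while Ung was higher in stem-called cells in 5 of 5 mice. It rose by 0.37 ± 0.13 (log2, SE, adjusted p = 0.0446), a call lost without control mouse 2 (0.27), high fat mouse 2 (0.40) or high fat mouse 3 (0.31), and by 0.66 and 0.63 in the distal region and the colon. Clspn, the checkpoint adaptor claspin, passed in the colon alone (0.60).

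Of the genes for copying chromatin, Uhrf1, which reads half-methylated DNA behind the fork, had the largest change in the colon. In stem-called cells Uhrf1 stood at 187 and 147 CPM in the control mice and 168, 137 and 209 CPM in the high fat mice in the proximal region. Its distal sums had 129.9 and 165 CPM in the control mice and 183, 126 and 191 CPM in the high fat mice. Its colon sums had 108 and 152 CPM in the control mice and 131, 124 and 157 CPM in the high fat mice. Other cells of the colon had 94.7 and 48.1 CPM in the control mice and 91.5, 32.4 and 73.9 CPM in the high fat mice, below every stem-called sum. Uhrf1 rose by 0.92 ± 0.18 (log2, SE, adjusted p = 0.000822) in the colon and stood at 0.40 ± 0.16 (adjusted p = 0.0626) in the distal and 0.16 ± 0.16 (adjusted p = 0.463) in the proximal region. Chaf1a and Chaf1b, subunits of the histone chaperone CAF-1, rose in the distal region (0.48 and 0.59) and the colon (0.87 and 0.80). The histone chaperone gene Asf1b passed in no organ (-0.10, -0.00 and 0.28).

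The rise in the colon was set against the mean rise of both small intestinal regions by a test of that difference. For 43 of 44 genes the difference was above 0, with a median of 0.38 on the log2 scale against 0.01 over all genes, yet 0 of 44 passed with edgeR after adjustment (4.05% of all genes). An unadjusted p under 0.05 was reached by 24 of 44 (19.2% of all genes). DESeq2 called 1 gene and limma on cells weighted equally called 2. Without control mouse 1 edgeR called 20 genes (median 0.48), and without control mouse 2 it called 0 (median 0.18). The stem effect was largest in the colon for 38 of the 44 genes, and larger in the distal than in the proximal region for all 44.

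The 3 genes with the smallest p in that test were Mcm10, Tk1 and Chaf1a. Mcm10 in the colon stood at 49.1 and 80.8 CPM in the control mice and 82.2, 90.2 and 83.6 CPM in the high fat mice in stem-called cells and 42.9 and 31.4 CPM in the control mice and 49.7, 32.4 and 39.5 CPM in the high fat mice in other cells. Tk1 in the colon stood at 17.7 and 59.3 CPM in the control mice and 44.2, 40.4 and 58.3 CPM in the high fat mice in stem-called cells and 21.1 and 26.7 CPM in the control mice and 26.1, 17.7 and 30.5 CPM in the high fat mice in other cells. Chaf1a in the colon stood at 46.7 and 86.2 CPM in the control mice and 75.4, 37.3 and 76.4 CPM in the high fat mice in stem-called cells and 37.2 and 29.6 CPM in the control mice and 44.01, 25.3 and 40.1 CPM in the high fat mice in other cells. Control mouse 1 held the smallest gap in Mcm10 and had less Tk1 in stem-called than in other cells. The excess of the colon effect was 0.58 ± 0.16 (log2, SE, adjusted p = 0.0552) for Mcm10, 0.56 ± 0.16 (adjusted p = 0.0562) for Tk1 and 0.56 ± 0.16 (adjusted p = 0.0664) for Chaf1a, with edgeR. All 3 were called without control mouse 1, at 0.68, 0.71 and 0.67.

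Between organs, stem-called cells of the colon had lower levels of some replication genes than those of the small intestine. Colon minus small intestine, 7 of 44 genes were lower (7.31% of all 12339 genes tested) and 1 higher (10.7%), with a median log2 fold change of -0.30 against 0.00 over all genes. The lower ones were Mcm2, Orc6, Pola1, Prim1, Pole, Rrm1 and Dtl. With the mouse as a block 24 were lower and 1 higher, and without control mouse 1 the calls numbered 2. Prim1, the catalytic primase subunit, stood at 96.5 and 126 CPM in the control mice and 109, 123 and 109.8 CPM in the high fat mice in stem-called cells of the proximal region. It stood at 74.3 and 122 CPM in the control mice and 106, 116 and 97.02 CPM in the high fat mice in the distal region and 59.1 and 80.8 CPM in the control mice and 61.3, 71.5 and 77.6 CPM in the high fat mice in the colon. The colon sums were below the proximal ones with no overlap, and the distal sum of control mouse 1 was within the colon range. Prim1 fell by 0.64 on the log2 scale (SE 0.15, adjusted p = 0.00628), Pole fell by 0.63 (SE 0.14, adjusted p = 0.00364) and Pola1 fell by 0.51 (SE 0.14, adjusted p = 0.0199). The Pola1 call was lost without control mouse 1 (-0.39), high fat mouse 2 (-0.49) or high fat mouse 3 (-0.53).

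Pole in stem-called cells stood at 80.9 and 60.1 CPM in the control mice and 59.3, 67.4 and 92.8 CPM in the high fat mice in the proximal region and 61.6 and 49.9 CPM in the control mice and 81.3, 62.2 and 71.4 CPM in the high fat mice in the distal region. Its colon sums, given above, overlapped the distal ones, through control mouse 2 at the low end of the distal range and high fat mice 1 and 3 at the high end of the colon range.

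Orc1 was the one gene called higher in the colon. In stem-called cells it stood at 19.1 and 16.4 CPM in the control mice and 18.5, 14.8 and 15.6 CPM in the high fat mice in the proximal region and 24.8 and 24.6 CPM in the control mice and 26.98, 18.7 and 36.1 CPM in the high fat mice in the colon, with the distal values between them in mean. The lowest colon sum, of high fat mouse 2, was within the proximal range. Orc1 rose by 0.49 ± 0.15 (log2, SE, adjusted p = 0.0321) in the colon against the small intestine. The call was lost without control mouse 1 (0.49), control mouse 2 (0.47) or high fat mouse 3 (0.35), with DESeq2 (0.49) and without lymphocyte-marker cells (0.36), all in the same direction.

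Within the small intestine, 0 of 44 genes differed between distal and proximal stem-called cells with edgeR (5.46% of all genes), 0 had an unadjusted p under 0.05 (13.7% of all genes), and DESeq2 and limma each called 0. The median was -0.08. The smallest p belonged to Orc1 (0.33 ± 0.17, log2 with SE, 95% interval -0.02 to 0.69), Rpa1 (-0.23 ± 0.15, -0.55 to 0.08) and Dtl (-0.25 ± 0.16, -0.59 to 0.10).

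In other cells most of the genes were lower in the colon. Colon minus small intestine, 34 of 44 genes were lower (12.5% of all 14307 genes tested) and 0 higher (16.4%), with a median log2 fold change of -0.66 against -0.01 over all genes. The count was 22 without control mouse 2. The 10 not called were Mcm6, Orc1, Cdt1, Gins2, Gins3, Rfc2, Rfc3, Rpa3, Pola2 and Ung. For 43 of 44 genes the difference was more negative in other than in stem-called cells. Prim1 in other cells stood at 89.5 and 90.05 CPM in the control mice and 85.7, 95.4 and 84.8 CPM in the high fat mice in the proximal region, 62.8 and 66.1 CPM in the control mice and 70.6, 80.3 and 56.6 CPM in the high fat mice in the distal region and 44.1 and 33.1 CPM in the control mice and 41.7, 42.96 and 37.2 CPM in the high fat mice in the colon. The organs did not overlap in this gene. Prim1 fell by 1.00 on the log2 scale (SE 0.11, adjusted p = 2.26e-05), Pole fell by 1.06 (SE 0.25, adjusted p = 0.00637) and Rrm2 fell by 1.00 (SE 0.20, adjusted p = 0.00287). Marker RNA of other cells moved with the organ too, from 3521 to 4821 CPM of enterocyte markers in the proximal region to 83.6 to 262 CPM in the colon, and from 96.6 to 272 CPM of colonocyte markers to 81.1 to 3996 CPM. Their part in the difference was not tested.

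The values behind the other 2 genes were as follows. Pole in other cells stood at 73.7 and 36.7 CPM in the control mice and 51.02, 52.2 and 66.5 CPM in the high fat mice in the proximal region and 56.8 and 25.6 CPM in the control mice and 50.6, 39.6 and 39.7 CPM in the high fat mice in the distal region. Rrm2 in other cells stood at 46.5 and 62.6 CPM in the control mice and 44.5, 27.4 and 54.02 CPM in the high fat mice in the distal region and 21.1 and 34.2 CPM in the control mice and 36.2, 31.8 and 37.6 CPM in the high fat mice in the colon. Both overlapped between the colon and the distal region.

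Distal minus proximal, 4 of 44 genes were lower in other cells (2.32% of all genes) and 0 higher (4%), with a median of -0.36 and all 44 below 0. With the mouse as a block 22 were lower, and without any 1 of the 5 mice the count was 0, as it was with library totals in place of TMM scaling. The 4 were Dtl, Cdc6, Prim1 and Pola1. Dtl fell by 0.70 on the log2 scale (SE 0.18, adjusted p = 0.0364), with the values given above. Cdc6 stood at 38.4 and 37.4 CPM in the control mice and 41.2, 33.5 and 42.5 CPM in the high fat mice in the proximal and 23.7 and 28.9 CPM in the control mice and 27.9, 25.7 and 28.4 CPM in the high fat mice in the distal region, with no overlap. It fell by 0.55 (SE 0.15, adjusted p = 0.0451), and Prim1 fell by 0.45 (SE 0.12, adjusted p = 0.0417).

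**Figure D3:**
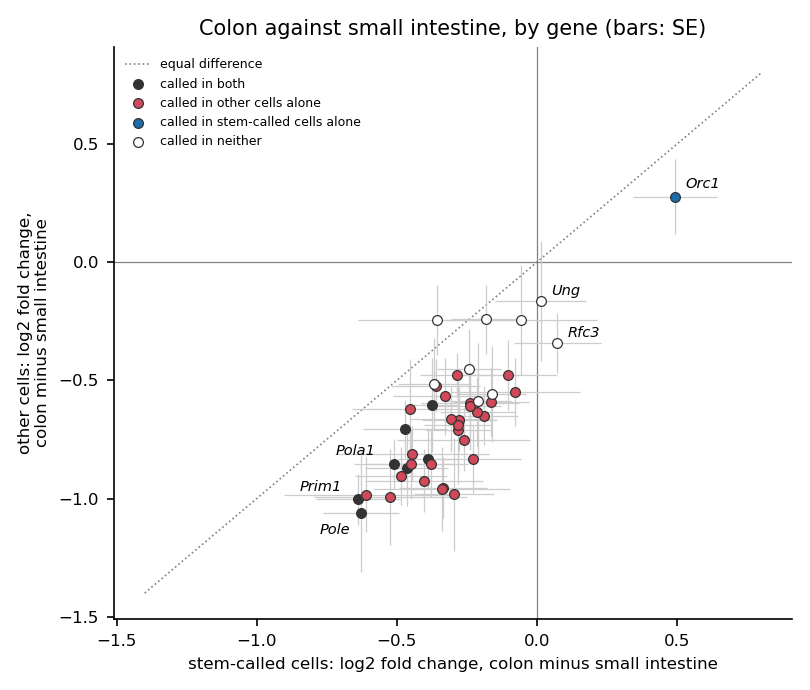
Log2 fold change of the colon minus the small intestine in stem-called cells (horizontal axis) and in other cells (vertical axis), with 1 point per gene, bars for the SE and colour for the adjusted p (threshold 0.05). All but 1 of the 44 points lie below the dotted line of equal difference, and Orc1, at 0.49 in stem-called and 0.28 in other cells, is alone in the upper right.

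Cell by cell, the same ordering appeared as a share of cells with several replication transcripts. Each cell was thinned at random to 3000 UMIs, which left out 21 of 2036 stem-called and 135 of 6016 other cells in the proximal region, 38 of 1884 and 282 of 4611 in the distal region, and 22 of 698 and 463 of 3674 in the colon. At least 5 UMIs of the 44 genes were found in 78.8% ± 6.84 of stem-called and 67.1% ± 11.1 of other cells in the proximal region, 71.1% ± 5.31 and 49.0% ± 7.55 in the distal region, and 63.3% ± 9.82 and 36.1% ± 8.29 in the colon (SD, n = 5 mice). Without thinning, the shares were 97.9% and 92.3%, 90.5% and 76.3%, and 89.5% and 62.01%.

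By library, the colon share in stem-called cells was 54.8% and 64.6% in the control mice and 70.1%, 52.00% and 75.00% in the high fat mice. In other cells of the colon it was 47.9% and 25.7% in the control mice and 39.9%, 33.6% and 33.3% in the high fat mice, so the groups did not overlap. The 52.00% of high fat mouse 2 comes from a library with 27 stem-called cells before thinning, so its gap to 47.9% rests on few cells. In the proximal region the share in stem-called cells was 69.9% and 77.96% in the control mice and 85.7%, 75.00% and 85.5% in the high fat mice, and in other cells 67.1% and 60.5% in the control mice and 86.2%, 59.7% and 61.9% in the high fat mice. There high fat mouse 1 had nearly equal shares and the groups overlapped. Its proximal library was the shallowest of that region, with medians of 6870 UMIs in stem-called and 4498.5 UMIs in other cells before thinning. The part of depth in its shares was not tested. UMIs of the 44 genes were also found in cells with lymphocyte markers. Among 563 cells with at least 3 lymphocyte markers and no Epcam UMI, a definition chosen after seeing the data, 36.0% of the 297 deep enough reached 5 UMIs, with a median depth of 3143 UMIs before thinning. Whether those cells lie outside the epithelium or copy DNA was not tested. The mean share in other cells of the colon was at that level, with single libraries above and below it, so the share is not read as expression there. As those lymphocyte-marker cells may copy DNA themselves, the match does not show a lack of expression either. With all libraries pooled, the median depth was 14177 UMIs in stem-called and 12933 UMIs in other cells. The pooled medians hide wider gaps in the colon. There they were 18430 and 4263.5 UMIs in high fat mouse 1, and 10401 and 2588 UMIs in high fat mouse 2. The remaining colon libraries were closer. They had 5354 and 4746.5 UMIs in control mouse 1, 19000 and 17311 UMIs in control mouse 2, and 19644 and 19443.5 UMIs in high fat mouse 3.

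**Figure D4:**
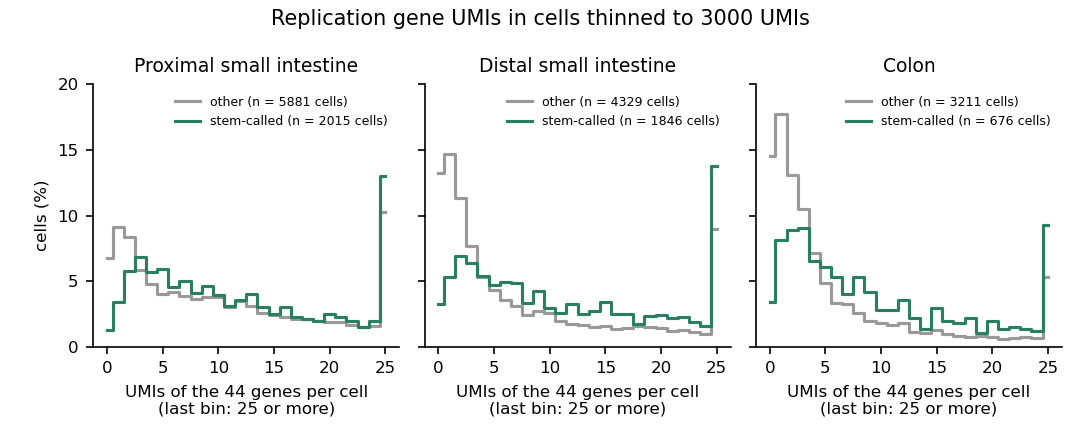
Share of cells (vertical axis, %) by the number of UMIs of the 44 genes per cell after thinning to 3000 UMIs (horizontal axis, the last bin holding 25 or more), in stem-called and other cells of each organ with all mice pooled. Other cells of the distal region and the colon pile up at 0 to 3 UMIs, while stem-called cells spread to higher numbers.

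The diet comparison asked whether the high fat diet changed these genes. Of the 44 genes, 0 passed with edgeR in any of the 6 pairs of organ and stem call. The share of all genes called was 0.122% in the proximal region, 0.0081% in the distal region and 0% in the colon for stem-called cells, and 0.0839%, 0.00699% and 0% for other cells. An unadjusted p under 0.05 was reached by 1, 0 and 1 of 44 genes in stem-called cells (3.72%, 2.67% and 2.54% of all genes) and by 0, 1 and 0 in other cells (3.1%, 2.01% and 3.44%). DESeq2 and limma on equally weighted cells each called 0 in all 6. The median log2 fold change was 0.04, 0.13 and 0.20 in stem-called cells of the proximal region, the distal region and the colon, and -0.01, 0.01 and 0.11 in other cells. As each mouse was left out, the median ranged over -0.02 to 0.10, -0.0088 to 0.34 and -0.04 to 0.44 in stem-called cells of the proximal region, the distal region and the colon, and over -0.08 to 0.05, -0.16 to 0.12 and -0.17 to 0.38 in other cells. Its sign thus rested on single mice in all 6.

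The genes with an unadjusted p under 0.05 were Ung, Mcm7 and Rfc5, 1 in each of 3 comparisons. Ung in proximal stem-called cells, with the values given above, differed by 0.61 ± 0.25 (log2, SE, 95% interval 0.08 to 1.14, unadjusted p = 0.0279). Mcm7 in stem-called cells of the colon stood at 138 and 129.9 CPM in the control mice and 212, 134 and 173 CPM in the high fat mice. High fat mouse 2 was within the control range, and the difference was 0.41 ± 0.19 (log2, SE, 95% interval 0.01 to 0.82, unadjusted p = 0.0469). Rfc5 in other cells of the distal region stood at 37.1 and 42.7 CPM in the control mice and 60.6, 49.2 and 54.1 CPM in the high fat mice. The difference was 0.40 ± 0.18 (log2, SE, 95% interval 0.01 to 0.79, unadjusted p = 0.0463). All 3 had an adjusted p of 1.

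The genes with the next smallest p had no unadjusted p under 0.05. In stem-called cells Pole2 and Pold1 of the proximal region stood at 0.46 ± 0.26 and 0.29 ± 0.20 (log2, SE). Pold1, Pole and Mcm7 of the distal region stood at 0.34 ± 0.20, 0.34 ± 0.21 and 0.27 ± 0.18, and Mcm4 and Pole of the colon at 0.37 ± 0.20 and 0.42 ± 0.23. In other cells Gins2, Rfc5 and Lig1 of the proximal region stood at -0.25 ± 0.26, 0.17 ± 0.18 and -0.26 ± 0.29. Tk1 and Pcna of the distal region stood at 0.40 ± 0.27 and -0.33 ± 0.23, and Rfc5, Rpa1 and Clspn of the colon at 0.37 ± 0.18, 0.25 ± 0.15 and 0.30 ± 0.21. A missed threshold does not show equal levels.

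The diets were also compared in the size of the stem effect, averaged over organs. With edgeR 0 of 44 genes passed (0% of all genes), 0 had an unadjusted p under 0.05 (3.37% of all genes), and DESeq2 and limma each called 0. The median difference was 0.07, between -0.20 without control mouse 1 and 0.46 without control mouse 2. The smallest p belonged to Mcm7 (0.23), Gins2 (0.20) and Orc6 (0.14). In the group means, stem-called cells of the colon held 74.8 ± 15.9 CPM per gene in 2 control mice and 84.8 ± 8.57 CPM in 3 high fat mice (SD), and those of the proximal region 98.4 ± 0.438 CPM and 102 ± 10.4 CPM.

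**Figure D5:**
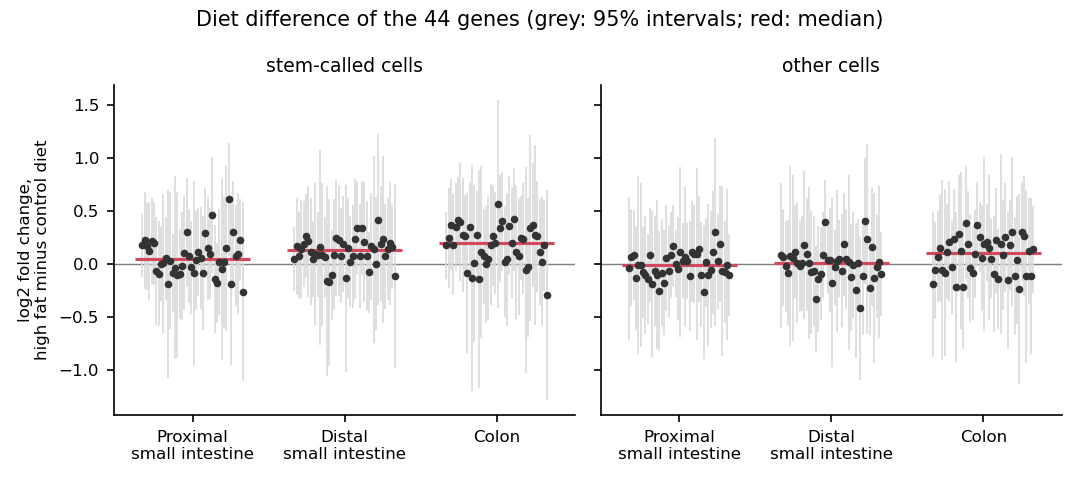
Log2 fold change of the high fat against the control diet (vertical axis) for the 44 genes in each organ (horizontal axis), in stem-called and other cells, with grey 95% confidence intervals and the median in red. Points scatter on both sides of 0 in every panel, and the medians lie between -0.01 and 0.20.

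Other genes of the same pathway, 47 replication and S phase genes outside the 44, were counted in the same way. This list and those that follow were also chosen with earlier results of these data known. Stem-called against other cells, 8, 31 and 38 of 47 were higher in the proximal region, the distal region and the colon (14.1%, 18.1% and 19.2% of all genes), and 1 was lower in each (19.3%, 22.1% and 22.1%), with medians of 0.21, 0.39 and 0.56. Brca2, a recombination mediator that protects forks, rose by 0.51 ± 0.12, 0.87 ± 0.14 and 1.16 ± 0.16 (log2, SE). Pold4, the small subunit of polymerase delta, fell by 0.54 in the proximal region and by 0.92 in the colon.

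Mitosis genes act after copying is done. Of 30, 3, 3 and 21 were higher in stem-called cells of the proximal region, the distal region and the colon (14.1%, 18.1% and 19.2% of all genes) and 0 lower (19.3%, 22.1% and 22.1%), with medians of 0.15, 0.20 and 0.56, and no test compared these shares with those of the replication genes. Aurkb, the kinase of the chromosomal passenger complex, rose by 0.30 ± 0.11, 0.37 ± 0.12 and 1.00 ± 0.15, and Ttk, a spindle checkpoint kinase, by 0.46 ± 0.13, 0.58 ± 0.14 and 0.80 ± 0.16 (log2, SE). Replication and mitosis RNA did not keep a fixed ratio between mice. The summed CPM of the 44 genes divided by that of the mitosis genes in stem-called cells was 1.54 and 0.792 in the control mice and 2.08, 1.13 and 1.11 in the high fat mice in the proximal region, 1.66 and 1.20 in the control mice and 1.70, 0.826 and 1.19 in the high fat mice in the distal region and 1.43 and 0.889 in the control mice and 1.33, 1.94 and 1.31 in the high fat mice in the colon.

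Of 30 E2F, cyclin and CDK control genes, 5, 11 and 14 were higher in stem-called cells of the proximal region, the distal region and the colon (14.1%, 18.1% and 19.2% of all genes) and 4, 5 and 5 lower (19.3%, 22.1% and 22.1%). The proximal count of higher genes was near the share of all genes. Cdk6, a kinase that opens the way into S phase, rose by 1.03 ± 0.11, 1.37 ± 0.12 and 1.33 ± 0.13 (log2, SE). The cyclin-dependent kinase inhibitor genes differed among themselves. Cdkn1c fell by 1.88, 1.85 and 1.30 in the 3 organs, and Cdkn1a fell by 0.90, 1.43 and 1.29. Cdkn1b rose by 0.23 in the proximal region and Cdkn2c by 0.48 in the colon, values given after they were seen.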

How the data were processed

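Intestinal cells of 5 mice were sequenced by Seq-Well (with a second strand synthesis step), a protocol that isolates cells in microwells, as the labels' protocols state. The authors deposited raw UMI counts per gene and cell (17185 genes, 18919 cells) and a cell table with diet, organ, mouse and stem call. All counts were whole numbers, their sums equalled the totals of the cell table in all 18919 cells, and reads were placed on mm10, per the submitters' processing notes. The aligner and the counting tool are not given in the sources used here. UMIs were not divided by gene length, so levels are compared within a gene. The cell table's control mouse 3 was taken as control mouse 2 of the titles by elimination.

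Counts were summed per mouse, organ and stem call (at least 20 cells, 30 sums, 321496 to 28652200 UMIs). edgeR 4.0.16 (R 4.3.3; quasi-likelihood test, TMM scaling, filterByExpr) was fitted across all genes, with Benjamini-Hochberg adjustment over all of them and calls at an adjusted p under 0.05. Stem-called against other cells was fitted with the library as a block. Organs and diets were compared within stem-called and within other cells without a block. The intervals of log2 fold changes are 95% intervals. The same mouse in different organs deviated together from its group mean, with correlations of 0.059 to 0.603 in stem-called cells and 0.016 to 0.475 in other cells. Of the 15 pairs each, those of the 2 control mice repeat the same values, since their deviations mirror each other by construction. The result with the mouse as a block is given where it moves a count by over 1.5 times. Replicates are separate mice, 2 on the control and 3 on the high fat diet. The scripts were checked on simulated counts. Cells were thinned to 3000 UMIs for shares of cells.

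The 44 genes, their roles and the 3 comparison lists were chosen with earlier results of these data known. Genes given with a value in every library were, in each comparison, the 3 with the largest change in each direction among those called or else the 3 with the smallest p, and the gene of each role with the largest mean CPM in stem-called cells. Of each list the 3 largest changes among those called could be named. Alternatives were DESeq2 1.42.0, limma 3.58.1 on log2(CPM + 1) with each cell weighted equally, other scaling and filters, the block, cells called at 3000 UMIs, no lymphocyte-marker cells and leaving out each mouse. A fit on cells of 10000 UMIs or more, a block on the mouse numbers of the cell table, and shares without thinning were chosen after seeing the data. Promoter sequences came from RefSeq (GRCm38.p6).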

Additional observations from a re-analysis of the deposited data

Results flagged for a closer look

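An edgeR test compared the rise in stem-called cells between the colon and the small intestine. It called 2 genes of the comparison lists (47, 30 and 30 genes) and 0 of the 44 replication genes. Of all 13544 genes tested, 548 (4.05%) were called. Brca1, which acts in recombination repair at stalled forks, had an excess of 0.75 on the log2 scale in the colon (SE 0.17, adjusted p = 0.0193). Aurkb, a mitotic kinase, had an excess of 0.66 (SE 0.17, adjusted p = 0.0369).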

How the results depend on the processing

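The count of replication genes called, out of 44, depended on the setting, and the cause was not tested except where the setting itself shows it. The share of all genes called under each alternative is not given, so a general change in calls cannot be told apart. The calls of stem-called against other cells in the proximal region (12, of which 1 lower) became 3 with DESeq2, 0 with no replicate block, 2 with the stem call made at 3000 UMIs (where 2196 of 4618 stem-called cells keep the call), 0 with each cell weighted equally in limma, and 28 with only the sums of that organ. The distal count (35) became 13 with no replicate block, 17 with the call at 3000 UMIs and 23 with limma. The colon count (40) was at least 28 under the planned settings other than leaving out a mouse. For the excess of the colon effect (0), DESeq2 gave 1, the call at 3000 UMIs 2, no lymphocyte-marker cells 2, cells of 10000 UMIs or more 4 (chosen after seeing the data) and limma 2. Colon minus small intestine in stem-called cells (8) became 25 with the replicate block, the mouse, and 1 with the call at 3000 UMIs. Distal minus proximal in other cells (4) became 8 with DESeq2, 0 with library totals, 1 with no filter, 22 with the replicate block, 0 with the call at 3000 UMIs, 1 with cells of 10000 UMIs or more and 0 with limma.

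Leaving out each mouse in turn gave 0 to 20 calls in the proximal region, 14 to 41 in the distal region, 22 to 41 in the colon, 0 to 20 for the excess of the colon effect, 2 to 10 for colon minus small intestine in stem-called cells, 22 to 35 in other cells, and 0 for distal minus proximal in other cells. Where a mouse left out leaves 1 control mouse, the spread of that mouse is taken from the rest. The median diet difference ranged over -0.17 to 0.38 in other cells of the colon. The diet difference in the stem effect of Mcm7 ranged over -0.031 to 0.53 and that of Orc6 over -0.025 to 0.40. In other cells of the colon the diet difference of Rpa1 was -2.4e-05 in cells of 10000 UMIs or more, and that of Clspn -0.059 with limma. No label says that a mouse number is shared across diets, and a replicate block on the numbers of the titles left 0 calls in all 6 diet comparisons. The cell table numbers the control mice 1 and 3. Mice of unlike diet with the same number there deviated in the same direction, with correlations of 0.26 to 0.31 in stem-called and 0.25 to 0.41 in other cells, over 2 pairs of mice in 3 organs. Pairs with other numbers had -0.31 to 0.05 and -0.41 to 0.20. Deviations were taken from group means, so those of the 2 control mice mirror each other by construction. The 2 pairs are therefore not independent, and these correlations cannot show a shared batch. A replicate block on those numbers, chosen after seeing the data, also left 0 calls in all 6, with medians of 0.10, 0.17 and 0.25 in stem-called cells of the proximal region, the distal region and the colon and 0.07, 0.07 and 0.15 in other cells.

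Shares of cells with replication UMIs moved with the minimum, as its construction sets. In stem-called and other cells, at least 1 UMI gave 98.9% and 93.8% in the proximal region, 96.8% and 87.3% in the distal region and 94.8% and 85.4% in the colon. Of the lymphocyte-marker cells with no Epcam UMI, 94.6% had at least 1 UMI. That was above other cells of every organ and near stem-called cells of the colon. Shares at this minimum are therefore not read as expression. At least 3 UMIs gave 90.8% of stem-called cells in the proximal region, 84.1% and 62.2% in the distal region and 76.0% and 53.3% in the colon. At least 10 UMIs gave 53.8% and 46.1%, 47.8% and 32.0%, and 38.3% and 19.95%. Thinned to 2000 UMIs, the shares were 64.4% of proximal stem-called cells, 58.9% and 39.1% in the distal region and 48.7% and 25.4% in the colon. Not thinned, they were 97.9% and 92.3%, 90.5% and 76.3%, and 89.5% and 62.01%.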
